A study of Mus musculus with 3 samples.

Results

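The genes described here are Selenbp1, Selenbp2, Rbp4, Psrc1 and Sdcbp2, 5 of the 27677 gene names on the array design. They were chosen from genes that the authors' deposited table lists in the same direction in liver, stomach and lung. They are not all such genes, since 29 spots are so listed. All probes that the scanner files or their accessions assign to these genes were taken, which gave 7 of 41174 probes. Selenbp1, Selenbp2, Rbp4 and Sdcbp2 had 1 probe each and Psrc1 had 3, and each probe was printed once per array. Because their direction in the deposited lists chose the genes, the values below are a description, and no test was made.

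All tumours came from AID Tg mice, whose transgene encodes AID, the activation-induced deaminase that turns cytosine into uracil in DNA. Liver and stomach tumours were each compared with nontumour tissue of that organ from an AID Tg mouse. The lung tumour was set against normal lung from a Wt mouse, so only the lung control lacked the transgene. The promoter of the transgene and the ages of the mice were not given in the sources used here. Each organ had 1 array of 2 colours, 3 arrays in all, without replicate or exchanged dyes, so no difference has a replicate check and precision is limited by the array number. Scanner values were analysed for liver and stomach, and lung values came only from the authors' deposited table.

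The sources did not settle which dye carried the tumour. Per the labels, Cy3 (green) marked the tumour on all 3 arrays, whereas the authors' deposited table heads its Cy5-high (red) spots as up in the tumour. Ratios are therefore given as log2(Cy5/Cy3), and a probe is described by its brighter channel, Cy5-high or Cy3-high. Under the table's headings Selenbp1, Selenbp2 and Rbp4 were lower and Psrc1 and Sdcbp2 higher in the tumours, and by the dye labels every sign would turn. All 3 arrays carried the tissues in the same dye orientation per the labels, so a preference of a probe for 1 dye and a difference between tumour and control cannot be told apart.

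The 5 genes have unlike roles. SELENBP1 binds selenium and oxidises methanethiol, and SELENBP2 is its close relative, known in mouse liver as a protein that binds acetaminophen. RBP4 is made mainly by hepatocytes and fat cells and carries retinol (vitamin A) through the blood in a complex with transthyretin. PSRC1, also called DDA3, binds microtubules and acts on the mitotic spindle. SDCBP2, or syntenin-2, is a PDZ-domain protein that binds membrane phosphoinositides.

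Selenbp1 and Selenbp2 lie near each other on chromosome 3 and gave nearly equal ratios in every organ, but their probes may read either transcript. The upstream sequences of the pair are shown as a description, and any link of theirs to the ratios was not tested. The RefSeq promoter windows (GRCm38.p6, plus strand, 250 bases before to 50 after each start) were aligned. Capitals mark bases that differ from the other gene or that are inserted within the aligned stretch. This stretch ran from base 15 to 290 of the Selenbp1 window and from 13 to 300 of the Selenbp2 window. The ends outside it were not aligned and are in lower case.
Selenbp1, chr3:94932833-94933132: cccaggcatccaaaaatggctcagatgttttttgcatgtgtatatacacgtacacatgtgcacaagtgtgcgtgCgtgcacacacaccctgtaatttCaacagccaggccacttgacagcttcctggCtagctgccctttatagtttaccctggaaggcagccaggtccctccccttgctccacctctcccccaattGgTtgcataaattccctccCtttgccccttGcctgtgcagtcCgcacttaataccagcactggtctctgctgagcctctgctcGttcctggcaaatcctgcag
Selenbp2, chr3:94693323-94693622: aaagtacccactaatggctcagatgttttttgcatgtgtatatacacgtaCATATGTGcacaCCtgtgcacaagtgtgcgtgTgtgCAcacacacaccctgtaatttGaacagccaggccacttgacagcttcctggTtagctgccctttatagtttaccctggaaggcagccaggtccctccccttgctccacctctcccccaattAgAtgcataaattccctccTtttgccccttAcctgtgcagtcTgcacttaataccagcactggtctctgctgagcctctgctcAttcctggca
Over 288 aligned columns 267 were identical (92.7%), 9 were mismatched and 12 lay in gaps. Letter motifs were searched on both strands, and none of them contains another. Both windows held the letters TATAAA on the minus strand only (tttata as printed). On either strand this TATA motif was in 14.2% of 27025 promoters of the same length. Both also held the CAAT-box motif CCAAT, which was in 37.9% of these promoters. Neither held the GC-box motif GGGCGG, which was in 35.9%. Such matches describe the letters in these windows only.

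On the array the pair could not be fully separated. The probe of Selenbp1 (A_52_P629487, chromosome 3 at 94818647 to 94818706) and that of Selenbp2 (A_51_P431018, chromosome 3 at 94578289 to 94578348) each carry the RefSeq accessions of both genes in the scanner files, so the probes may read either transcript and are not independent. Probe coordinates are those of the scanner files, and their genome build is not stated there.

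Selenbp1 and Selenbp2 were Cy3-high in all 3 organs. On the liver array Selenbp1 read 28700 in Cy3 and 20500 in Cy5 before correction, over local backgrounds of 66 and 65. Its log2 ratio after background correction and loess normalization was -1.16, with a scanner error of 0.18, which is 2.24-fold brighter in Cy3. Selenbp2 read 41400 in Cy3 and 29700 in Cy5 and also had -1.16 (error 0.18). Both probes were thus brighter in Cy3 before any correction as well as after it. Of 37556 liver probes, 16 had a ratio at or below that of Selenbp1.

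On the stomach array the same probes were nearly equal in the raw channels. Selenbp1 read 1390 in Cy3 and 1410 in Cy5, a raw log2 ratio of 0.02, and Selenbp2 read 1480 and 1600, a raw ratio of 0.11. The 1000 probes nearest to them in brightness had median raw ratios of 1.06 and 1.09. Both probes thus lay on the Cy3 side of spots of like brightness. The normalized ratios were -1.07 (error 0.19) for Selenbp1 and -0.99 (error 0.18) for Selenbp2, and 490 of 37128 stomach probes lay at or below the former. The size of these stomach ratios depended on the correction for brightness: centred on the array median without a loess curve, they were still Cy3-high but smaller, at -0.36 and -0.27.

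In lung, the authors' deposited table gave Selenbp1 a log2 ratio of -2.07 (4.20-fold) from processed signals of 230000 in Cy3 and 54700 in Cy5. For Selenbp2 the authors' deposited table gave -2.01 (4.02-fold) from 263000 and 65500. The lung ratios of the pair were thus larger in size than those of liver and stomach, though the reference tissue came from another mouse. The level of these probes differed widely between organs: the processed Cy3 signal of Selenbp1 was 542 times the median gene spot on the liver array and 28.5 times on the stomach array.

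Rbp4 was Cy3-high in all 3 organs, with a level that differed most between organs among the 5 genes. On the liver array its probe (A_51_P374752, chromosome 19 at 37817322 to 37817381) read 64400 in Cy3 and 41400 in Cy5, and the normalized ratio was -1.33 (error 0.19, 2.51-fold). Of 37556 liver probes 9 had a ratio as low, its own included, which is a description since the gene was chosen on these contrasts. Centred on the array median without a loess curve, the liver ratio was -0.91. On the stomach array it was dim, with 218 in Cy3 and 114 in Cy5 over backgrounds of 62 and 65, and the ratio was -1.13 (error 0.61, 2.19-fold). These normalized liver and stomach ratios lay within the stomach error of each other. By the scanner software's own ratio, to which the errors belong, they were -1.28 in liver and -2.18 in stomach, further apart than the summed errors.

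The stomach value of Rbp4 depended on the background correction, since its Cy5 signal stood close to the 68.4 that negative control spots gave in that channel. In Cy3 negative control spots gave 119 on the stomach array and 127 on the liver array, above the local backgrounds. Cy3 readings of dim probes thus also stood nearer to the floor than those backgrounds show. With a normexp offset of 10 in place of 50 it was -1.68, with the scanner software's own ratio -2.18, and without background correction -0.81. In lung, the authors' deposited table gave a ratio of -3.15 (8.87-fold) from processed signals of 6560 in Cy3 and 739 in Cy5. The processed Cy3 signal was 1218 times the median gene spot on the liver array and 2.21 times on the stomach array. In bulk tissue, fewer cells of a type and less RNA per cell cannot be told apart.

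**Figure D1:**
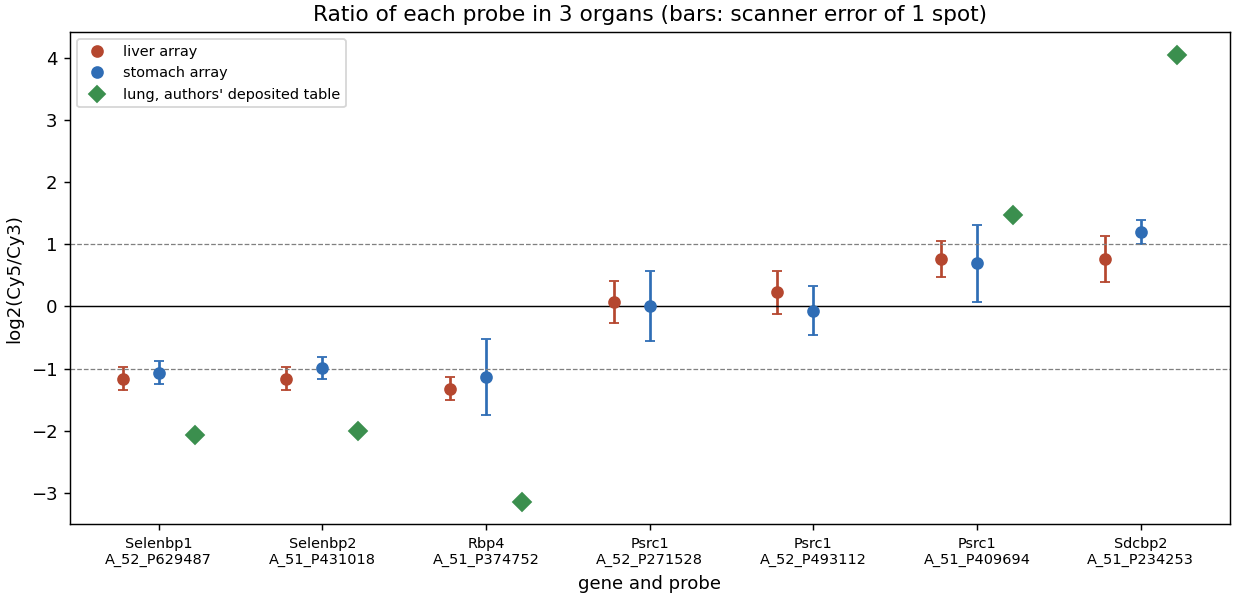
log2(Cy5/Cy3) of each of the 7 probes (x axis) on the liver array (red circles) and the stomach array (blue circles) after loess normalization, with bars for the scanner error of 1 spot, and in lung (green diamonds) from the authors' deposited table. Dashed lines mark 2-fold. The lung values were not normalized here, so their size is on another measure than that of liver and stomach. Selenbp1, Selenbp2 and Rbp4 lie below 0 in all 3 organs, Sdcbp2 and 1 of 3 Psrc1 probes above 0, and the other Psrc1 probes near 0.

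Sdcbp2 was Cy5-high in all 3 organs. On the liver array its probe (A_51_P234253, chromosome 2 at 151330530 to 151330589) was dim, reading 204 in Cy3 and 318 in Cy5, and the normalized ratio was 0.76 (error 0.37, 1.69-fold), short of 2-fold. On the stomach array it read 1060 in Cy3 and 5390 in Cy5, and the ratio was 1.20 (error 0.19, 2.29-fold). These liver and stomach values lie within their summed scanner errors, as do those of the scanner software's ratio (1.25 and 1.24). The raw stomach ratio was 2.35, of which the 1000 probes nearest in brightness shared 1.15. In lung, the authors' deposited table gave a ratio of 4.05 (16.6-fold) from processed signals of 1840 in Cy3 and 30800 in Cy5, the largest ratio in size among the 5 genes in these lists. In that lung list of 2288 spots in the authors' deposited table it ranked 78 by size.

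Psrc1 did not read alike across its probes. The probe that the lists name (A_51_P409694, chromosome 3 at 108206316 to 108206375) read 233 in Cy3 and 397 in Cy5 on the liver array, with a ratio of 0.76 (error 0.29). On the stomach array it read 159 and 242, with a ratio of 0.69 (error 0.62). For lung, the authors' deposited table gave 1.46 (2.76-fold) from processed signals of 553 in Cy3 and 1530 in Cy5. This probe was thus Cy5-high in all 3 organs, below 2-fold on both scanner arrays after normalization. The lung value is on another measure than these normalized ratios. By the authors' deposited table the same probe had 1.08 in liver and 1.60 in stomach, so lung was not the largest on that measure.

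The other Psrc1 probes were near 0. In the files' coordinates they start at 0 and 936 bases from the first Psrc1 probe, and the listed probe starts at 1352. A_52_P271528 (108205900 to 108205959) read 235 and 250 on the liver array (ratio 0.07, error 0.34) and 178 and 180 on the stomach array (0.01, error 0.56). A_52_P493112 (108204964 to 108205023) read 226 and 260 in liver (0.22, error 0.34) and 211 and 232 in stomach (-0.07, error 0.40). Neither probe is named in any of the 6 lists, and their lung values were not analysed here. Over the 3 probes the mean ratio was 0.35 with a standard deviation (SD) of 0.36 in liver and 0.21 with an SD of 0.42 in stomach. The mean of the gene was thus no larger than the spread between its own probes. The scanner files give A_52_P271528 and A_51_P409694 the same 4 accessions, so the annotation does not set the listed probe apart from the nearer of the others.

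**Figure D2:**
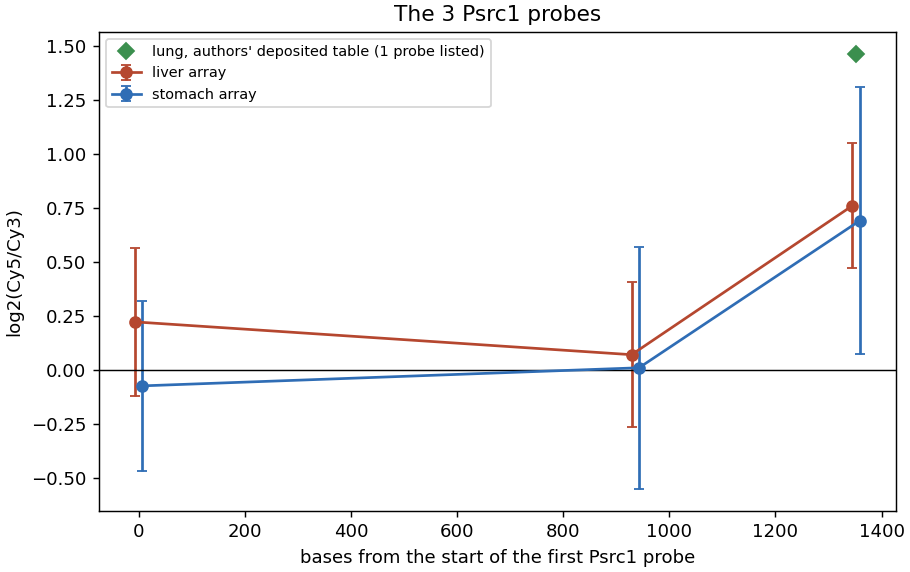
log2(Cy5/Cy3) of the 3 Psrc1 probes against their distance in bases from the start of the first one, on the liver array (red) and the stomach array (blue) with the scanner error of 1 spot, and in lung (green diamond, the authors' deposited table, 1 probe listed). The probe at 1352 bases lies above 0 in all 3 organs, and the bars of the other probes reach 0. Liver and stomach values are loess normalized and the lung value is not, so their sizes are on unlike measures.

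Few probes were 2-fold the same way on both scanner arrays under the main setting, and of the members only those of Selenbp1 and Rbp4 were. After the same normalization, 2-fold Cy3-high probes made up 0.0719% of 37556 in liver and 1.47% of 37128 in stomach, and 2-fold Cy5-high probes 0.181% and 0.956%. The members passed the filter on dim spots with all 7 probes on both arrays, and of their 14 values 6 reached 2-fold: Selenbp1, Selenbp2 and Rbp4 in liver and Selenbp1, Rbp4 and Sdcbp2 in stomach. Of 36053 probes measured on both arrays, 4 were 2-fold Cy3-high on both (0.0111%), 1 was Cy5-high on both (0.00277%) and 11 went 2-fold in opposite ways (0.0305%). The members were chosen on these contrasts, so nothing is read from their count.

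The balance of 2-fold calls moved with the processing. Liver held 68 Cy5-high and 27 Cy3-high probes, against 217 and 160 with an offset of 10, 180 and 12 with median centring, and 1022 and 709 with the scanner software's ratio. On both arrays the same way it was 1 and 4, against 20 and 36 with an offset of 10, 27 and 4 with median centring, and 224 and 209 with the scanner software's ratio. Stomach held 355 and 547, against 1780 and 352 with median centring and 1879 and 1628 with the scanner software's ratio.

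The raw channels leaned with brightness on both arrays. The median raw log2 ratio ran from -0.71 in the dimmest of 10 equal bins of liver spots to 0.55 in the brightest, and from -0.62 to 1.05 on the stomach array, and the loess step removed this trend. The liver spots of Selenbp1, Selenbp2 and Rbp4 lay among the brightest, with 69, 39 and 12 brighter probes among the 1000 nearest, whose median raw ratio was 0.62 for all 3. Their own raw ratios were -0.49, -0.48 and -0.64, on the other side of 0. The neighbours were on the whole dimmer (median brightness 12.4, against 14.6, 15.1 and 15.7), so the correction there leans on the end of the curve.

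**Figure D3:**
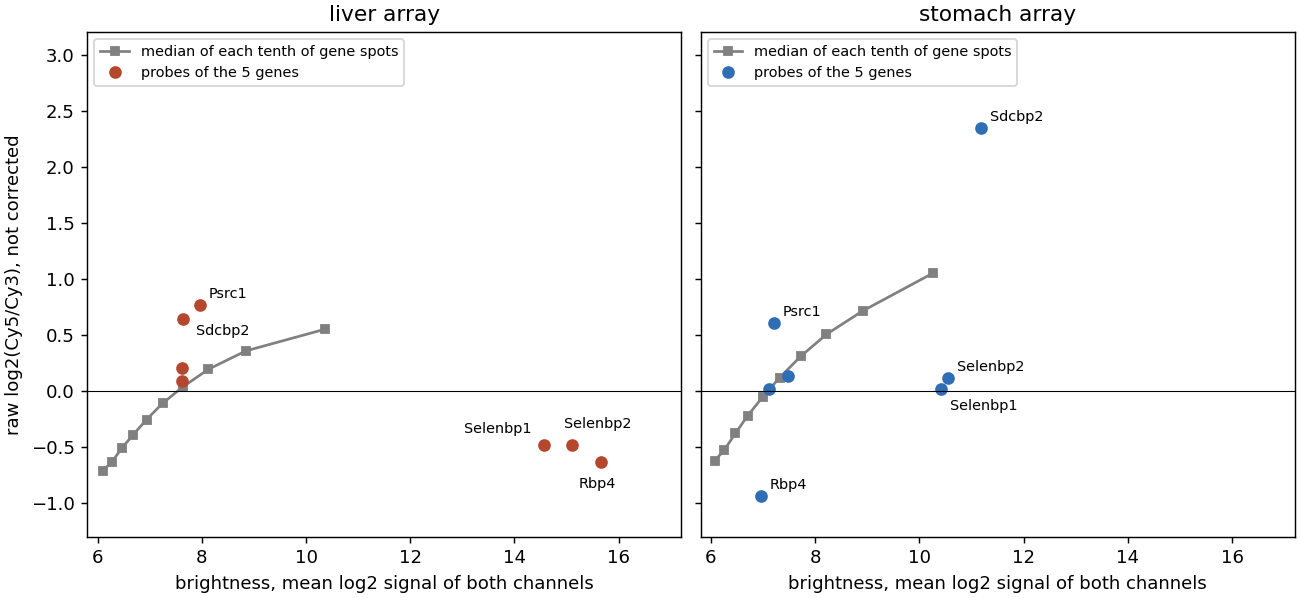
Raw log2(Cy5/Cy3) of the 7 probes (coloured points) against brightness, the mean log2 signal of both channels after background correction, on the liver array (left) and the stomach array (right); grey squares are medians of 10 equal bins of the measured spots. On the stomach array Selenbp1 and Selenbp2 lie near a raw ratio of 0, below the grey line, and Sdcbp2 lies above it.

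Over the 14 member values the direction was kept in 14 with another normexp offset and in 14 without background correction. With median centring it was kept in 13 and with the scanner software's ratio in 13, the exceptions being Psrc1 A_52_P493112 and A_52_P271528 in stomach, whose values are near 0. By the scanner software's ratio the liver values of Sdcbp2 and of the listed Psrc1 probe were 1.25 (error 0.37) and 1.08 (error 0.29), past 2-fold where the normalized values of 0.76 were not. By that ratio 10 of the 14 values were at least 2-fold, and by median centring 2 were, Rbp4 and Sdcbp2 in stomach. The 10 are the listed spots, and the lists that chose the genes hold this same ratio, so nothing is read from their count or direction. Over all probes 1731 of 37556 in liver and 3507 of 37128 in stomach were at least 2-fold by the scanner software's ratio. With median centring these counts were 192 and 2132.

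**Figure D4:**
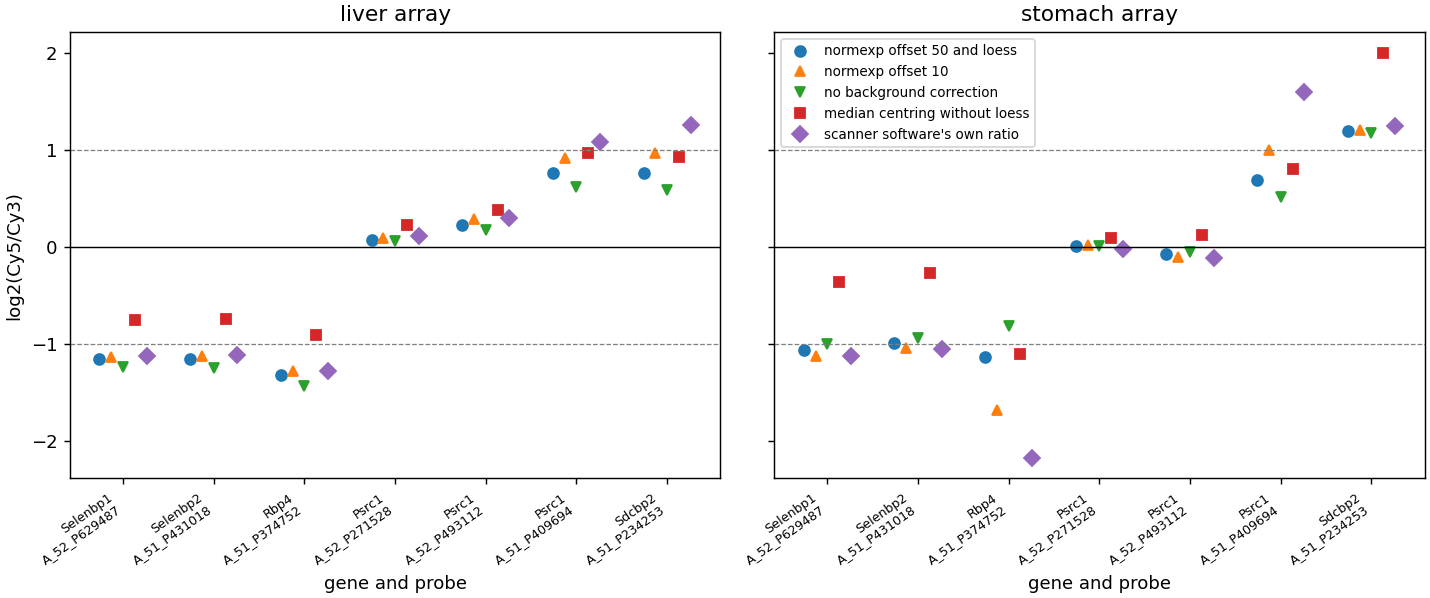
log2(Cy5/Cy3) of the 7 probes under 5 settings of background correction and normalization on the liver array (left) and the stomach array (right); dashed lines mark 2-fold. Selenbp1, Selenbp2 and Rbp4 stay below 0 under each of these settings, with the stomach values of the first pair near -0.3 under median centring.

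The direction of the 5 genes can be set beside that of all spots listed in 3 organs. The authors' deposited table lists 115 spots in liver, stomach and lung, and 29 of them (25.2%) had the same brighter channel in all 3, 18 Cy5-high and 11 Cy3-high. These are 0.0433% and 0.0265% of 41534 gene spots. The 5 genes have 1 spot each in the lists of each organ, and the Cy3-high and Cy5-high lists of the authors' deposited table hold 1.04% and 1.25% of gene spots for liver, 3.33% and 4% for stomach, and 9.78% and 5.51% for lung. Since these lists chose the genes, nothing is read from that. The other 86 were mixed in the authors' deposited table, most often Cy5-high in liver and Cy3-high in stomach and lung (41 spots). Of 1228 spots listed in stomach and lung 85.0% had the same brighter channel in the authors' deposited table, of 225 in liver and stomach 49.3%, and of 342 in liver and lung 24.9%. The 1228 shared spots made up 40.4% of the stomach and 19.3% of the lung lists, the 225 made up 23.7% of the liver and 7.40% of the stomach lists, and the 342 made up 36.0% of the liver and 5.38% of the lung lists, in the authors' deposited table.

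Of the 29 spots alike in the authors' deposited table, 6 were at least 2-fold in every organ: those of Selenbp1, Selenbp2, Rbp4, Psrc1 and Sdcbp2, and that of Cyp2f2, a cytochrome P450 gene named here after its values were seen. The same lists chose the 5 genes, so nothing is read from their place among the 6. Cyp2f2 was Cy3-high, with log2 ratios of -1.33 in liver, -4.35 in stomach and -5.15 in lung by the authors' deposited table. The liver and stomach arrays as a whole were weakly related, with Pearson r = 0.10 and Spearman rho = 0.21 across 36053 probes, which share the dye orientation and are no independent replicates.

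**Figure D5:**
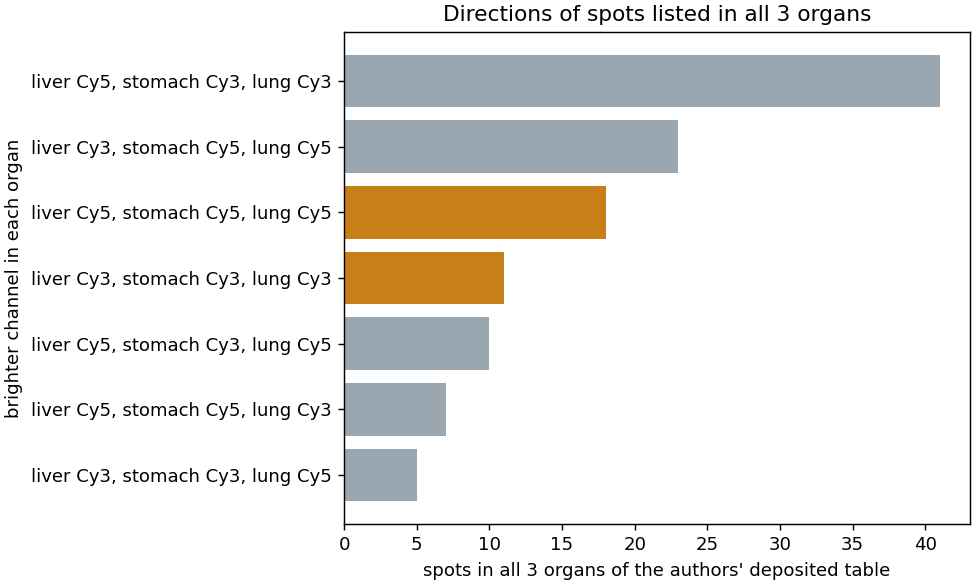
Number of spots (x axis) for each combination of brighter channels (y axis) among the 115 spots that the authors' deposited table lists in liver, stomach and lung; orange bars mark the same channel in all 3. The combination Cy5 in liver with Cy3 in stomach and lung holds 41 spots, and the orange bars hold 18 and 11.

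The partners of Rbp4 in retinol handling lay on both sides. Of 29 genes for retinol transport and metabolism, 28 were measured in liver, with none at 2-fold and a median of 0.10, against 0.01 over all genes. Over all genes in liver 0.152% were past 2-fold on the Cy5 side and 0.0703% on the Cy3 side. In stomach 29 were measured, with 2 past 2-fold on the Cy5 side, 1 on the Cy3 side and a median of 0.01. Over all 25322 genes measured in stomach, 0.873% were past 2-fold on the Cy5 side and 1.41% on the Cy3 side, with a median of 0.001. For lung the authors' deposited table lists 6 of the 29 as Cy5-high and 6 as Cy3-high, beside 5.51% and 9.78% of all gene spots.

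Stra6, the membrane receptor for RBP4, had 0.58 in liver (error 0.17) and -1.54 in stomach (error 0.20), and the authors' deposited table gave -1.05 in lung. Rdh10, which oxidises retinol to retinal, had -0.22 in liver and just reached 2-fold on the Cy5 side in stomach (SD 0.07 between 2 probes), and the authors' deposited table gave 2.88 and 1.81 in lung. Rdh10 fell short of 2-fold under at least 1 other setting, with a lowest value of 0.86.

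Ttr, the blood partner of RBP4, had 0.53 in liver (error 0.18) and -0.26 in stomach (error 1.07). Rarres1 (0.97) and Rdh16 (0.82) had the largest liver ratios of these genes. Aldh1a3, which makes retinoic acid, had 0.93 in stomach (SD 0.68 between 2 probes), and the authors' deposited table gave 4.19 in lung. Further lung entries of the authors' deposited table were Rbp2 (3.99 and 2.96), Rbp7 (2.35) and Adh4 (1.01) on the Cy5 side. On the Cy3 side the authors' deposited table listed Lrat (-3.42 and -2.72), which stores retinol as esters, Rarres2 (-2.53 and -2.40), Rarb (-1.81), Aldh1a1 (-1.62) and Aldh1a2 (-1.27).

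Genes that use or handle selenium were set beside Selenbp1 and Selenbp2. Of 25, none was at 2-fold in liver (24 measured, median 0.05) or stomach (25 measured, median 0.09). Over all genes 0.152% were past 2-fold on the Cy5 side and 0.0703% on the Cy3 side in liver. In stomach these shares were 0.873% and 1.41%, so nothing is read from the counts. The medians over all genes were 0.01 in liver and 0.001 in stomach. Gpx2, the glutathione peroxidase of gut epithelium, had 0.66 in liver (error 0.30) and 0.92 in stomach (error 0.18), and the authors' deposited table gave 1.63 in lung, so its direction was opposite to that of Selenbp1. The next in size were Dio3 in liver (0.43, not well above background in both channels) and Selenom in stomach (-0.75). The authors' deposited table also lists Selenon (-1.39), Sepsecs (-1.02) and Selenom (-1.01) as Cy3-high in lung. Of all gene spots, its lung lists hold 5.51% on the Cy5 side and 9.78% on the Cy3 side.

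Spindle and microtubule genes were set beside Psrc1. In stomach 3 of 17 were past 2-fold, all on the Cy5 side, with a median of 0.41: the spindle factor Tpx2 (1.52), and Incenp (1.52) and Aurkb (1.32) of the chromosomal passenger complex. Over all genes in stomach 0.873% were past 2-fold on that side and the median was 0.001. In liver none of 16 was at 2-fold (median 0.04), with Tpx2 at 0.36 and Cenpe at -0.21, neither with all its probes well above background. Over all genes in liver 0.152% were past 2-fold on the Cy5 side and 0.0703% on the Cy3 side. In lung the authors' deposited table lists Tpx2 (1.63), Aurkb (1.05) and Incenp (1.03) as Cy5-high. It lists Clasp2 (-1.86), Mapre2 (-1.80), Ndc80 (-1.56) and Ckap5 (-1.40) as Cy3-high, per the authors' deposited table. Of all gene spots, its lung lists hold 5.51% on the Cy5 side and 9.78% on the Cy3 side. Of the genes next to Psrc1, Sort1 had 0.03 in liver and 0.07 in stomach with -1.19 in lung by the authors' deposited table, and Celsr2 had 0.17 and -0.16.

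Syntenin and syndecan genes were set beside Sdcbp2. None of 15 was at 2-fold in liver (median 0.10) or stomach (median 0.32). Over all genes 0.152% were past 2-fold on the Cy5 side and 0.0703% on the Cy3 side in liver. In stomach these shares were 0.873% and 1.41%, so nothing is read from the counts. The medians over all genes were 0.01 in liver and 0.001 in stomach. Sdcbp, the close relative of Sdcbp2, had 0.10 in liver (SD 0.12 between 2 probes) and 0.40 in stomach. Tspan8, a tetraspanin, had 0.74 in liver (error 0.19) and 0.97 in stomach (error 0.18), and the authors' deposited table gave 2.45 in lung. Sdc4 had the next largest ratio in liver (-0.65) and Gpc3 in stomach (-0.79). The authors' deposited table also lists Pdcd6ip (1.62) as Cy5-high and Gpc3 (-3.55), Sdc3 (-1.91) and Sdc2 (-1.28) as Cy3-high in lung. Of all gene spots, its lung lists hold 5.51% on the Cy5 side and 9.78% on the Cy3 side.

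Genes of like pattern were sought by Euclidean distance of log2 ratios over the 3 arrays, with lung from the authors' deposited table. Candidates were genes other than the members, well above background in both channels on both arrays. They were also in the same lung list of the authors' deposited table as the member, so the side in lung was set beforehand. Selenbp1 and Selenbp2 were thus not candidates for each other, though they lay nearer to each other than to any gene named below. In liver, stomach and lung Selenbp1 had -1.16, -1.07 and -2.07, and Selenbp2 had -1.16, -0.99 and -2.01. For Selenbp1 and for Selenbp2 the nearest of 2298 genes were Arl3, Prodh and Coq8a, at distances of 0.66 to 0.74. Their liver ratios were -0.64, -0.50 and -0.45, smaller in size than those of the pair. For Rbp4 they were M77003, Col8a2 and Hopx, at 0.96 to 1.21. For Sdcbp2 the nearest of 1491 were Plac8, Oasl1 and Gsta2, at 0.36 to 0.56. For Psrc1 they were Srek1ip1, Dtx4 and Prss41, at 0.09 to 0.14. The Psrc1 pattern joined the mean of 3 probes in liver and stomach with the 1 listed probe in lung. That probe by itself was higher in liver and stomach, at 0.76 and 0.69.

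Markers of other cell types differed between the channels on the stomach array. All 5 parietal and chief cell markers were at least 2-fold Cy3-high (median -4.53), with a summed processed signal of 3104700 in Cy3 and 122770 in Cy5, as were 4 of 4 squamous markers (248500 and 36424), 3 of 4 smooth muscle markers (136478 and 43094) and 2 of 3 exocrine pancreas markers (1021940 and 176116). Among the squamous markers Krt13 was counted by a mean of -1.56 over 2 probes that differed widely (SD 2.66). Over all genes in stomach 1.41% were past 2-fold on the Cy3 side and 0.873% on the Cy5 side. The part of these cell types in the Cy3-high stomach ratios of Selenbp1, Selenbp2 and Rbp4 was not tested. On the liver array hepatocyte markers summed to 1937750 in Cy3 and 1446370 in Cy5, none of 5 measured was at 2-fold (median -0.17), and Alb was saturated in both channels. Over all genes in liver 0.0703% were past 2-fold on the Cy3 side and 0.152% on the Cy5 side. Stomach hepatocyte markers were dim (19485 and 7451), with Apoa1 at -3.24. Leukocyte markers, 3 of 3 measured on both arrays, summed to 16235 and 16332 in liver and 12335 and 11410 in stomach, none at 2-fold. Lung epithelial markers Sftpa1 and Sftpb, and the smooth muscle markers Cnn1, Des and Myh11, were among the Cy3-high lung spots of the authors' deposited table, as were Trf, Chia1 and Ptprc. The authors' deposited table lists Alb, Krt13 and Lor as Cy5-high. It does not list Sftpc, Scgb1a1, Acta2, Cd3e or Cd79a for lung. Of all gene spots, its lung lists hold 9.78% on the Cy3 side and 5.51% on the Cy5 side. The part of these cells in the lung ratios was not tested.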

How the data were processed

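Each of 3 arrays held a tumour and its control in 2 colours and was read with Agilent Feature Extraction 8.5.1.1, per the submitters' processing notes. The protocols in the labels start from 500 ng of total RNA and use Cy3 and Cy5. Per the file headers, the deposited intensity columns hold mean spot and median local background signals without normalization, and processed signals corrected for background and dye by the scanner software. The deposited log10 ratio is of red over green, and the deposited p-value and error come from the scanner software's error model for 1 spot, per the file headers.

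Raw signals were corrected with normexp (offset 50) and normalized by loess in limma 3.58.1 (R 4.3.3), with control spots at weight 0. Outlier spots, probes not well above background in either channel and spots saturated in both were left out. Values are per probe, and genes of lists are means over probes. The offset pulls ratios of dim probes towards 0. The steps were tested on simulated data with known changes, past 2-fold, on bright spots only. That test does not cover changes in dim probes or changes near 2-fold. Later steps used Python 3.11.15.

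The authors' deposited table stacks 6 lists of log10 ratios. Its liver and stomach ratios (951 and 3042 spots) equalled the scanner files' within 0.002, and its signal columns, noted as raw, equalled the processed signals within 1%. These liver and stomach spots had scanner p-values up to 0.01, and the lung lists start at 2-fold. In the lung down list 1779 of its 4064 rows have the columns in another order; each row was read in the order that gives its ratio. For lung, spot numbers were joined to the liver and stomach design.

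Of 41174 probes, 22951 were named by accession, 6659 by symbol and 3096 by synonym through RefSeq GRCm38.p6; 8468 kept the file's name. No test was made because organs had 1 array each, and genes were counted at a log2 ratio of 1 in size. The genes and lists were chosen with earlier results of these data known. Named genes were all probes of the 5 genes; list members at 2-fold on either array or listed for lung, otherwise the largest 2 per array; the nearest 3 genes in pattern; and tissue markers. A gene of the retinol list that the rule names is not reported here. Alternatives were offset 10, no background correction, median centring, the scanner software's ratio, no filter on dim probes and a filter requiring both channels.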

Additional observations from a re-analysis of the deposited data

Results flagged for a closer look

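Stra6, the receptor for RBP4, lay on opposite sides in 2 organs, by more than the scanner error in each: the log2(Cy5/Cy3) ratio was 0.58 in liver and -1.54 in stomach. Each organ had 1 array, and the difference was not tested. No group was large enough to look for samples that stand apart.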

How the results depend on the processing

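No paired analysis was possible because each organ had 1 array. No filter on dim probes, a filter requiring both channels and no background correction left the counts of 2-fold probes, members and list genes within 1.5 times. With a normexp offset of 10, 377 liver probes, 1639 stomach probes and 56 on both arrays the same way were at least 2-fold, against 95, 902 and 5. List genes at 2-fold on either array were then 7 for retinol (3), 1 for selenium (0), 6 for the spindle (3) and 1 for syntenin (0), with the main counts in parentheses. With median centring the probe counts were 192, 2132 and 31, the member values at 2-fold 2 in place of 6, and the selenium, spindle and syntenin genes 4, 5 and 3. With the scanner software's ratio the probe counts were 1731, 3507 and 433, the member values 10, and the list genes 8, 2, 7 and 1 in the same order. This ratio is the one in the lists that chose the members, so nothing is read from the 10. Member values moved by more than their scanner error in 6 of 14 under median centring and 4 of 14 under the scanner software's ratio, and none that was 2-fold changed sign. Signal near background limits Rbp4 in stomach, Sdcbp2 in liver and the Psrc1 probes.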
